A study of Mus musculus with 20 samples.

Results

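The marker genes of striatal interneurons were followed in RNA from the striatum of 20 male mice. The list held 10 genes, chosen by symbol, and 9 of them matched a row among the 39179 genes of the count tables. They were Sst, Npy and Nos1 for the somatostatin class, Pvalb for the parvalbumin class, Chat and Slc5a7 for the cholinergic class, Calb2 for the calretinin class, and Vip and Cck, which mark other GABAergic classes. Slc18a3, the vesicular acetylcholine transporter and the third cholinergic marker of the list, matched no row and was not analysed here. All 9 genes passed the expression filter, a level over 1 CPM (a gene's counts scaled by library size) in 3 mice or more, which kept 14792 genes.

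The mice came from generation 17 of a selection experiment begun from an intercross of 8 inbred strains. The High-Active line was bred for home cage activity, and the Control line was bred at random over the same generations. At about 6.5 months of age, 5 mice of each line received saline and 5 received amphetamine (0.25 mg/kg, intraperitoneal) 2 hours before the tissue was taken. Line and treatment together gave 4 groups of 5 mice. There was 1 line of each kind, so selection and drift cannot be told apart as the source of a line difference. The labels name the parents of each mouse, with 8 parent pairs among the 10 Control mice and 5 among the 10 High-Active mice. Dorsal and ventral striatum of both sides were pooled for each mouse.

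Most striatal neurons are medium spiny projection neurons, and interneurons are a small minority that shapes their firing. Somatostatin interneurons release the peptides somatostatin and neuropeptide Y and make nitric oxide, parvalbumin interneurons give fast inhibition onto projection neurons, and cholinergic interneurons are tonically active cells whose acetylcholine interacts with dopamine. Calretinin interneurons are a more varied class. Several of these genes are also expressed outside the striatal interneurons: Cck and Vip are abundant in cerebral cortex, Cck there in excitatory neurons too, and Calb2 is abundant in thalamus, septum and olfactory areas. In bulk tissue, fewer cells of a class and less RNA per cell cannot be told apart.

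The tissue had a striatal profile. The 10 genes of medium spiny neurons summed to between 3840 and 6105 CPM per mouse, with Ppp1r1b (the phosphoprotein DARPP-32) the one with the most counts, at a mean of 1246 CPM. None of the 10 was called between the lines, but only 1 had a positive log2 fold change, High-Active minus Control. The median of the 10 was -0.13, against -0.000931 over all genes, and Rgs9 differed most (-0.29, SE 0.11). Markers of cortical excitatory neurons were also present. Their summed level ranged from 508 to 1044 CPM in Control saline mice, from 822 to 1080 in Control amphetamine mice, from 337 to 498 in High-Active saline mice and from 409 to 1189 in High-Active amphetamine mice, and no marker of the 12 was at 0 in all mice of a group. The one with the most counts was Slc17a7, the vesicular glutamate transporter of cortical neurons, at a mean of 336 CPM. Markers of neighbouring regions (thalamus, septum, olfactory areas; 9 genes) summed to between 78.1 and 333 CPM. For each mouse, a cortical score and a neighbouring-region score were taken as the mean over the list of log2 CPM centred per gene, and they are given below beside the genes they moved with. Gene counts summed to 32388971 reads in the shallowest mouse and 53710713 in the deepest, which left at least 104 reads on any of the 9 genes in any mouse.

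The promoters of 3 peptide genes, Sst, Vip and Cck, are shown. The levels of these genes varied together over the mice, as described further on. Npy, also a peptide gene, varied with them too (r = 0.58 with Sst, 0.48 with Vip and 0.73 with Cck). Its promoter is not shown and held neither form of the element described next. Each sequence is the RefSeq promoter on build GRCm38.p6, 300 bases from 250 before the gene start, written from 5′ to 3′ on the strand of the gene. Capitals mark the cAMP response element, the binding sequence of CREB, as TGACGTCA, or its first 7 letters, searched on both strands. Sst lies on chromosome 16, and its promoter is chr16:23890795-23891094 on the minus strand. Vip lies on chromosome 10, and its promoter is chr10:5638968-5639267 on the plus strand. Cck lies on chromosome 9, and its promoter is chr9:121495645-121495944 on the minus strand.
Sst: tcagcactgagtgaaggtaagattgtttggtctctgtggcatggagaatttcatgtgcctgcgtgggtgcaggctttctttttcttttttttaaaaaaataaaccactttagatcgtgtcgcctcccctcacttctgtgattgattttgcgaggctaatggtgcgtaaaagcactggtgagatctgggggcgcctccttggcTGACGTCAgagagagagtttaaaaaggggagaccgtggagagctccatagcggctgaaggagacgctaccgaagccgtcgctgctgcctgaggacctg
Vip: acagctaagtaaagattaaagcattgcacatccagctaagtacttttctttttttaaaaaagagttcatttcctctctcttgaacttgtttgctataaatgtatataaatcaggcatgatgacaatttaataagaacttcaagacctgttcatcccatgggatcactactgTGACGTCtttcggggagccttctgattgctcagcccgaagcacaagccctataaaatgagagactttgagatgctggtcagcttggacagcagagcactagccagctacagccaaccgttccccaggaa
Cck: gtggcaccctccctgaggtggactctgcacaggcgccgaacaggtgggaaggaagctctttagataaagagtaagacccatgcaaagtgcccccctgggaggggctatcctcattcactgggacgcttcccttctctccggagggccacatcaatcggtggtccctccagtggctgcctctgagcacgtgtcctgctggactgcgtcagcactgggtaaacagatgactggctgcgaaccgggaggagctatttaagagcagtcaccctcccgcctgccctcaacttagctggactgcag
The whole element stood in the Sst promoter, where it began 48 bases before the start, and in 1.79% of 32851 mouse promoters of this length. Because the element is its own reverse complement, its 7-letter form also lies within it on the other strand. The 7-letter form alone stood in the Vip promoter, beginning 79 bases before the start. The 7 letters stood in 3.21% of promoters, a share that includes those with the whole element. Neither form was found in the promoters of Cck, Npy, Nos1, Pvalb, Chat, Slc5a7 or Slc18a3, and Calb2 was not searched. These matches describe the sequence and were not tested as sites.

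Among the 9 genes, somatostatin mRNA was the most abundant. Levels per length were computed as RPKM, the CPM divided by the length of the annotated exons in kilobases. Sst averaged 203 RPKM ± 24.5 (SD, n = 20 mice) and exceeded Npy, at 93.2 ± 20.0 RPKM, in 20 of 20 mice. The next were Cck at 42.7 ± 20.9 RPKM, Pvalb at 23.5 ± 9.55 RPKM and Calb2 at 17.6 ± 12.97 RPKM. Each of these exceeded the next gene in the order in 15 of 20 mice, so their order was not the same in every mouse. Slc5a7 followed at 7.92 ± 1.60 RPKM and Nos1 at 7.04 ± 0.857 RPKM, and Slc5a7 was the higher in 13 of 20 mice. Chat averaged 4.73 ± 0.950 RPKM and Vip 2.68 ± 1.35 RPKM, with Chat the higher in 16 of 20 mice. All levels from here on are CPM, which compare a gene between mice. They are not corrected for length, so where a list is said to have most counts on a gene, this is no order of transcript levels.

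Of the 9 genes, only Calb2 was called different between the lines by edgeR's quasi-likelihood test (Benjamini-Hochberg adjusted p under 0.1), and it was higher in High-Active mice. Across all 14792 genes the genotype effect was called for 2149, or 14.5%, with 7.63% higher and 6.9% lower in High-Active mice. A single call among 9 genes is close to that share. An unadjusted p under 0.05 was reached by 4 of the 9 genes, Calb2, Npy, Cck and Sst, and by 26.1% of all genes. The genotype effect is High-Active minus Control averaged over both treatments, and the amphetamine effect is amphetamine minus saline averaged over both lines. The median genotype log2 fold change was 0.06 over the 9 genes and -0.000931 over all genes.

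**Figure D1:**
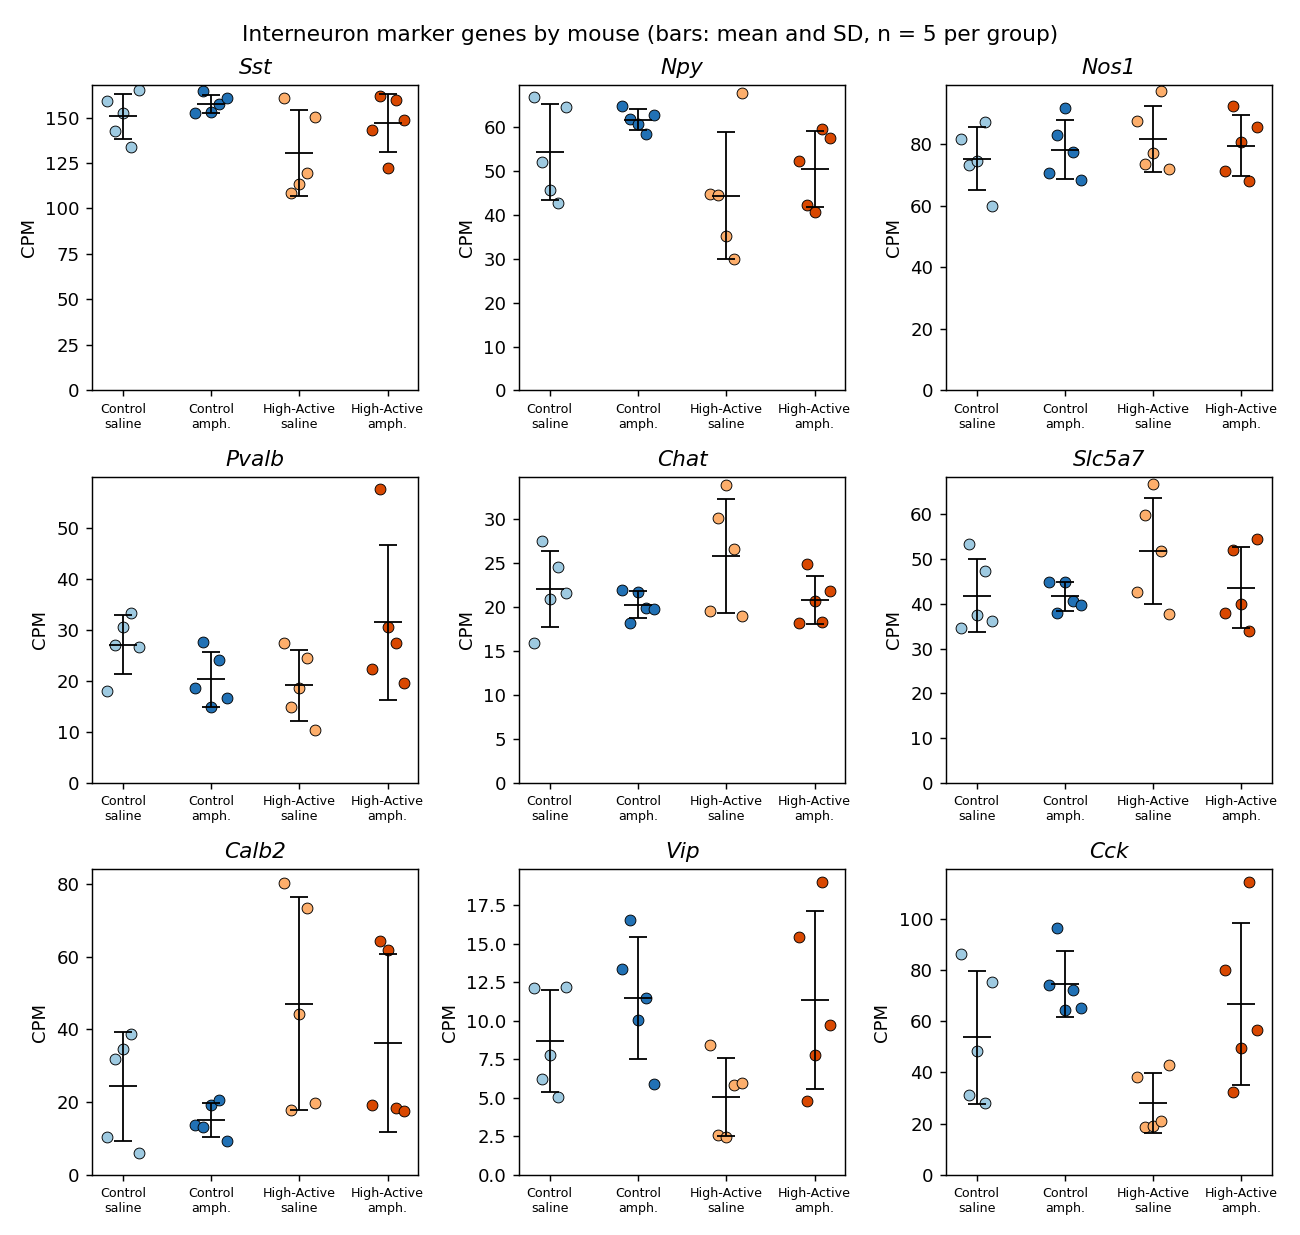
Level of each marker gene (CPM, vertical axis from 0) in each of the 20 mice by group; points are mice, horizontal marks the mean of 5 mice and bars the SD. Sst and Nos1 were the least scattered, Calb2 split into mice under 21 CPM and mice above 31 CPM, and in Cck the High-Active saline group held the lowest values.

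In the somatostatin class, Sst and Npy were slightly lower in High-Active mice on average, and Nos1 was not, with no call for any of the 3. Sst (chromosome 16, 23889573 to 23890958) encodes the inhibitory peptide somatostatin. It was at 134, 143, 153, 159 and 165 CPM in Control saline mice and at 153, 153, 157, 161 and 164 CPM in Control amphetamine mice. In High-Active mice it was at 109, 113, 119, 151 and 161 CPM after saline and at 122, 143, 148, 159 and 162 CPM after amphetamine. The 4 lowest values of the series were High-Active mice, which lay below all Control mice, and the other 6 High-Active mice lay within the Control range. The genotype effect was -0.15 on the log2 scale (SE 0.07, adjusted p = 0.168), and the amphetamine effect was 0.12 (SE 0.07, adjusted p = 0.502). The SD over High-Active mice, 20.8 CPM, was larger than that over Control mice, 9.75 CPM.

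Npy (chromosome 6, 49822710 to 49829507) encodes neuropeptide Y, the peptide released with somatostatin. In Control mice it ranged from 42.7 to 66.8 CPM after saline (median 52.0) and from 58.4 to 64.8 CPM after amphetamine (median 61.8). In High-Active mice it was at 29.9, 35.2, 44.6, 44.7 and 67.7 CPM after saline and at 40.8, 42.3, 52.3, 57.5 and 59.6 CPM after amphetamine. Again 4 High-Active mice lay below all Control mice, but 1 lay above all of them. The genotype effect was -0.29 (SE 0.12, adjusted p = 0.144), and the amphetamine effect was 0.18 (SE 0.12, adjusted p = 0.571). With the cortical score as a covariate the genotype effect was -0.049 for Npy (adjusted p = 0.895) and -0.053 for Sst (adjusted p = 0.811). With the neighbouring-region score it was -0.12 for Npy (adjusted p = 0.630) and -0.14 for Sst (adjusted p = 0.397). Npy fell as the neighbouring-region score rose (r = -0.64, permutation test, adjusted p = 0.0268, n = 20), a relation added after the data were seen. Nos1 (chromosome 5, 117781032 to 117958840), the neuronal nitric oxide synthase, ranged from 60.0 to 97.3 CPM over all mice, with group means between 75.2 and 81.5 CPM. Its genotype effect was 0.07 (SE 0.08, adjusted p = 0.609), with a 95% interval from -0.08 to 0.22. The antisense gene Gm26995 overlaps 364 bases of Nos1 exons, and the strand setting of the counting was not stated, so reads of the pair may not be fully apart.

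Of 7 other listed genes of this class, Crhbp, which encodes a binding protein of corticotropin-releasing hormone, was called lower in High-Active mice (log2 fold change -0.40, SE 0.15, adjusted p = 0.097), and none was called higher. Across all genes 6.9% were called lower. With the cortical score as a covariate the value of Crhbp was -0.00873 (adjusted p = 0.980). Its call was also lost in voom with parents as a random block (-0.39, adjusted p = 0.121) and with counts added up by parents (-0.25, adjusted p = 0.426). Chodl, a gene of the long-range somatostatin and nitric oxide cells, differed by -0.00100 (SE 0.08), and Nos1ap, an adaptor of the neuronal nitric oxide synthase and the gene with the most counts of the list, by -0.11 (SE 0.08). The median over the 7 genes was -0.11. Over the mice, Sst and Npy had a positive correlation (log2 CPM minus the group mean, r = 0.58, rho = 0.59, n = 20), which did not pass the threshold of 0.05 after adjustment over 22 relations (permutation test, adjusted p = 0.0894 for r). Nos1 had r = -0.10 with Sst (permutation test, adjusted p = 0.761), and its r with Npy was -0.53 (permutation test, adjusted p = 0.0691).

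Pvalb, the calcium-binding protein parvalbumin (chromosome 15, 78191114 to 78206400), had the widest gap of the 9 genes between the line differences after saline and after amphetamine, without a call. It was at 18.0, 26.6, 27.1, 30.6 and 33.2 CPM in Control saline mice and at 14.8, 16.5, 18.5, 24.0 and 27.6 CPM in Control amphetamine mice. In High-Active mice it was at 10.3, 14.8, 18.6, 24.4 and 27.4 CPM after saline and at 19.6, 22.3, 27.4, 30.6 and 57.6 CPM after amphetamine. After saline 2 High-Active mice lay below all Control mice, and after amphetamine 2 lay above all of them. The group means were 27.1 CPM in Control and 19.1 CPM in High-Active mice after saline, and 20.3 and 31.5 CPM after amphetamine. High-Active minus Control was -0.51 after saline (SE 0.29, adjusted p = 0.374) and 0.63 after amphetamine (SE 0.29, adjusted p = 0.369). The interaction, the difference between these values, was 1.14 (SE 0.40, unadjusted p = 0.011), rank 70 among 14792 genes by p, and its adjusted p was 1.00. Averaged over treatments, the genotype effect of Pvalb was 0.06 (SE 0.20, adjusted p = 0.874) and took the other sign in the likelihood-ratio test and with either tissue score as a covariate.

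The Pvalb interaction stayed positive in every fit with a single mouse left out, between 0.81 and 1.31, and was lowest without the High-Active amphetamine mouse at 57.6 CPM. The other mouse of the same parents, in the saline group, had the lowest Pvalb level of the series, 10.3 CPM. Against the neighbouring-region score Pvalb had r = 0.79 over the 10 High-Active mice and r = -0.17 over the 10 Control mice, and the difference between these values was not tested. Over all mice r was 0.56 (permutation test, adjusted p = 0.0708, n = 20). Of 8 other genes of the parvalbumin class, Pthlh, which encodes parathyroid hormone-like peptide, was called higher in High-Active mice (0.34, SE 0.11, adjusted p = 0.074), where 7.63% of all genes were. The call of Pthlh was lost with the cortical score (0.43, adjusted p = 0.164) and held with the neighbouring-region score (0.51, adjusted p = 0.005). The potassium channel gene Kcnc1, the gene with the most counts of the class, differed by 0.01 (SE 0.06), and the median over the 8 genes was 0.05. None was called for the interaction.

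The 2 cholinergic genes varied together more closely than any other pair of the 9. Chat (chromosome 14, 32408203 to 32465989), the enzyme that makes acetylcholine, averaged 22.1 ± 4.35 CPM in Control saline, 20.3 ± 1.54 in Control amphetamine, 25.8 ± 6.52 in High-Active saline and 20.8 ± 2.76 in High-Active amphetamine mice (SD, n = 5 per group). Single mice lay between 15.9 CPM, in a Control saline mouse, and 33.9 CPM, in a High-Active saline mouse. Slc5a7 (chromosome 17, 54273590 to 54299034), the high-affinity choline transporter of cholinergic terminals, averaged 41.8 ± 8.17, 41.7 ± 3.17, 51.8 ± 11.9 and 43.7 ± 9.04 CPM in the same order of groups (SD, n = 5 per group). In both genes 2 High-Active saline mice lay above all Control saline mice and the remaining 3 lay within their range. Slc18a3 lies inside Chat on the same strand, and the antisense gene Gm2990 overlaps 183 bases of Chat exons, so the count of Chat may hold reads of its neighbours.

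Their correlation over the mice was r = 0.91 (rho = 0.93, n = 20, permutation test, adjusted p = 0.00011), with r = 0.90 among Control and 0.92 among High-Active mice. The unadjusted p of this r, 1e-05, was the smallest the 100000 permutations can give. The genotype effect was 0.13 for Chat (SE 0.11, adjusted p = 0.476) and 0.19 for Slc5a7 (SE 0.11, adjusted p = 0.305). The amphetamine effect was -0.22 for Chat (SE 0.11, adjusted p = 0.422) and -0.12 for Slc5a7 (SE 0.11, adjusted p = 0.702). With the cortical score in the model all of these values took the other sign, at -0.14 and -0.09 for genotype and 0.09 and 0.19 for amphetamine.

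All 10 other cholinergic markers had a positive genotype log2 fold change, with a median of 0.24, against -0.000931 over all genes. The largest values were those of Gbx2 and Zic4 (Zic4 0.71, SE 0.30, adjusted p = 0.143). The members Chat and Slc5a7 lay below the median of 0.24, at 0.13 and 0.19, and took the other sign with the cortical score. Against 7.63% of all genes, 2 of the 10 were called higher in High-Active mice. These were Gbx2 (0.93, SE 0.32, adjusted p = 0.076), a transcription factor of the developing forebrain and thalamus, and Ecel1 (0.39, SE 0.14, adjusted p = 0.089), an endopeptidase-like protein of neurons. Both calls were lost with the neighbouring-region score (0.19 and 0.16, adjusted p = 0.718 and 0.523), with the cortical score (0.46 and 0.0863, adjusted p = 0.604 and 0.793) and in voom with parents as a random block (adjusted p = 0.232 and 0.107). With counts added up by parents Gbx2 kept its call (0.84, adjusted p = 0.090) and Ecel1 lost it (0.28, adjusted p = 0.397). Lhx8, a transcription factor of the cholinergic lineage, differed by 0.28 (SE 0.15, adjusted p = 0.272), and Ache, acetylcholinesterase and the gene with the most counts of the list, by 0.16 (SE 0.08, adjusted p = 0.205). The median amphetamine effect of the list was -0.33, with no call. Both cholinergic members fell as the cortical score rose: r = -0.81 for Chat (rho = -0.85, permutation test, adjusted p = 0.00011, n = 20) and r = -0.80 for Slc5a7 (rho = -0.82, permutation test, adjusted p = 0.00264, n = 20). The part of cortical RNA in their levels was not tested.

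Calb2, the calcium-binding protein calretinin (chromosome 8, 110137502 to 110168210), was the only called gene and the most variable one. It was at 6.01, 10.4, 31.9, 34.6 and 38.79 CPM in Control saline mice and at 9.30, 13.1, 13.7, 19.2 and 20.6 CPM in Control amphetamine mice. In High-Active mice it was at 17.8, 19.7, 44.2, 73.4 and 80.3 CPM after saline and at 17.5, 18.2, 19.2, 61.7 and 64.4 CPM after amphetamine. The 5 highest mice of the series were all High-Active, and the other 5 High-Active mice lay between 17.5 and 19.7 CPM, inside the Control range. The mean was 41.6 ± 26.1 CPM in High-Active and 19.8 ± 11.5 CPM in Control mice (SD, n = 10 per line). The genotype effect was 1.10 (SE 0.38, adjusted p = 0.079, a 2.14-fold difference). The call did not hold when the shared parents were taken into account, in voom with parents as a random block (1.00, SE 0.42, adjusted p = 0.152) or with counts added up by parents (0.91, SE 0.37, adjusted p = 0.228). It was 0.95 after saline (SE 0.53, adjusted p = 0.372) and 1.25 after amphetamine (SE 0.54, adjusted p = 0.341), with no call in either. These contrasts called 3.74% and 1.3% of all genes. The amphetamine effect of Calb2 was -0.53 (SE 0.38, adjusted p = 0.604).

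High and low Calb2 mice occurred among offspring of the same parents, as the labels name them. The study's methods describe the mice of a line as coming from different families, so the labelled parents cannot be taken as certain. In the 4 High-Active families with more than 1 mouse, the highest level was between 3.26 and 4.58 times the lowest. In the family with the widest gap 1 mouse had 80.3 CPM after saline and the other 17.5 CPM after amphetamine. The highest and lowest mouse differed in treatment in each of the 4 families. The higher one had received saline in some families and amphetamine in others. Without the High-Active saline mouse at 80.3 CPM the genotype effect was 0.96 (adjusted p = 0.134), and without the High-Active amphetamine mouse at 64.4 CPM it was 0.95 (adjusted p = 0.155). The call was also lost without the Control saline mouse at 6.01 CPM (0.98, adjusted p = 0.118), and it did not hold without High-Active saline replicate 3 (1.11, adjusted p = 0.1005) or 4 (0.99, adjusted p = 0.143), High-Active amphetamine replicate 3 (0.96, adjusted p = 0.143), Control saline replicate 1 (1.00, adjusted p = 0.127), or Control amphetamine replicate 1 (1.08, adjusted p = 0.110), 2 (1.08, adjusted p = 0.117) or 5 (1.03, adjusted p = 0.120). For the other 10 mice the call held.

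Calb2 varied with the markers of regions next to the striatum. Its correlation with the neighbouring-region score was r = 0.82 (rho = 0.83, n = 20, permutation test, adjusted p = 0.000792), a relation added after the data were seen, with r = 0.58 in Control and 0.98 in High-Active mice. That score ranged from -0.25 to 1.36 in High-Active saline and from -0.61 to 1.20 in High-Active amphetamine mice, against -0.95 to 0.45 over the Control mice. All 9 genes of the list had a positive genotype log2 fold change, with a median of 0.66, against -0.000931 over all genes. Against 7.63% of all genes, 2 of the 9 were called higher in High-Active mice. These were Tcf7l2, a thalamic transcription factor (1.01, SE 0.32, adjusted p = 0.060), and Eomes (1.68, SE 0.55, adjusted p = 0.068), a transcription factor of olfactory bulb projection neurons, at a mean of only 0.636 CPM. Both calls were lost in voom with parents as a random block (adjusted p = 0.192 and 0.241) and with the cortical score (adjusted p = 0.577 and 0.380). With counts added up by parents Tcf7l2 lost its call (adjusted p = 0.126) and Eomes kept it (adjusted p = 0.082). Zic1, a transcription factor of septum and thalamus and the gene with the most counts of the list, differed by 0.66 (SE 0.28, adjusted p = 0.139). With the neighbouring-region score as a covariate the genotype effect of Calb2 was 0.17 (SE 0.25, adjusted p = 0.786), and with the cortical score it was 0.50 (SE 0.38, adjusted p = 0.608). These 2 fits called 5.16% and 2.53% of all genes.

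**Figure D2:**
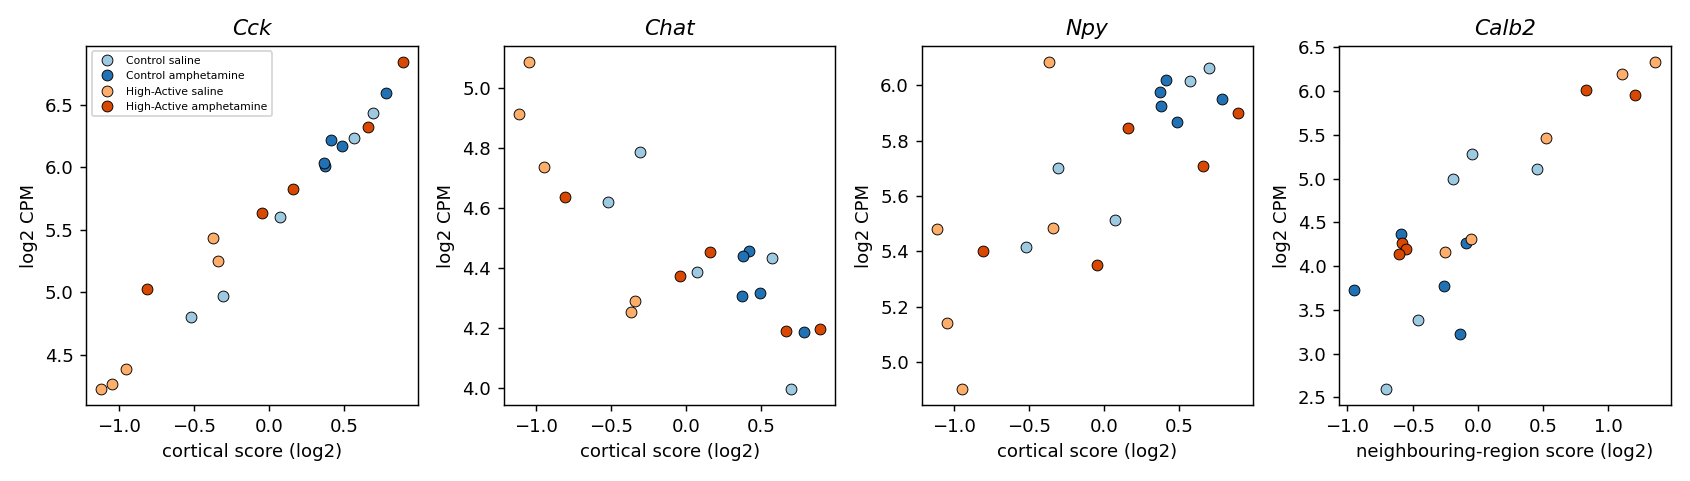
Level of 4 marker genes (log2 CPM, vertical axes) against a tissue score (mean centred log2 CPM of the marker list, horizontal axes) in the 20 mice, coloured by group. Cck followed the cortical score along a line (r = 0.98), Chat ran against it (r = -0.81), Npy followed it more loosely (r = 0.67), and the 5 mice highest in Calb2 had neighbouring-region scores above 0.52.

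Genes most like Calb2 over the 20 mice were Pcbd1, Uncx, Nynrin, Prkra and Htr7, each with r between 0.95 and 0.96. None of the 5 was called between the lines. Uncx had a log2 fold change of 1.05 (adjusted p = 0.267). Of the 8 further markers of calretinin and other GABAergic interneurons, Htr3a, a serotonin-gated channel subunit, was called higher in High-Active mice (0.47, SE 0.13, adjusted p = 0.031), as was Prox1, a transcription factor of interneurons from the caudal ganglionic eminence (0.43, SE 0.15, adjusted p = 0.074). Across all genes 7.63% were called higher. The call of Prox1 was lost with the neighbouring-region score (0.155, adjusted p = 0.536), with the cortical score (0.162, adjusted p = 0.671), in voom with parents (adjusted p = 0.118) and with counts added up by parents (adjusted p = 0.175). The call of Htr3a was lost with the cortical score (0.35, adjusted p = 0.302) and with counts added up by parents (adjusted p = 0.118). Reln, an extracellular matrix protein and the gene with the most counts of the list, differed by 0.05 (SE 0.08), and the median over the 8 genes was 0.28.

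Vip and Cck had the largest amphetamine differences of the 9 genes, and neither was called. Vip (chromosome 10, 5639218 to 5647617) encodes vasoactive intestinal peptide and had the lowest level per length of the set. It was at 5.06, 6.23, 7.79, 12.1 and 12.2 CPM in Control saline mice and at 5.89, 10.0, 11.5, 13.4 and 16.6 CPM in Control amphetamine mice. In High-Active mice it was at 2.43, 2.59, 5.83, 5.97 and 8.45 CPM after saline and at 4.80, 7.77, 9.73, 15.4 and 19.005 CPM after amphetamine. In the High-Active line 3 amphetamine mice exceeded every saline mouse. The amphetamine effect of Vip was 0.79 (SE 0.28, unadjusted p = 0.0104, adjusted p = 0.261), and its genotype effect was -0.40 (SE 0.28, adjusted p = 0.382).

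Cck (chromosome 9, 121489824 to 121495694) encodes the peptide cholecystokinin. It was at 27.8, 31.3, 48.4, 75.1 and 86.1 CPM in Control saline mice and at 64.4, 65.3, 72.0, 74.2 and 96.2 CPM in Control amphetamine mice. In High-Active mice it was at 18.7, 19.1, 20.9, 38.0 and 43.0 CPM after saline and at 32.5, 49.5, 56.7, 79.8 and 114 CPM after amphetamine. In the High-Active line 4 of 5 amphetamine mice lay above all saline mice. The amphetamine effect was 0.86 (SE 0.24, unadjusted p = 0.002, adjusted p = 0.204), with 0.47 in Control (SE 0.34, adjusted p = 0.836) and 1.25 in High-Active mice (SE 0.35, adjusted p = 0.337). The interaction of Cck was 0.78 (SE 0.48, adjusted p = 1.00). The genotype effect was -0.55 (SE 0.24, adjusted p = 0.158).

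No gene of the 14792, 0%, was called for amphetamine by the quasi-likelihood test, nor for the interaction, nor for amphetamine within either line (0% in each), so the 9 genes had no calls either. At an unadjusted p under 0.05, 1844 genes and 2 of the 9, Cck and Vip, passed for amphetamine. For the interaction 440 genes and 1 of the 9, Pvalb, passed. DESeq2 called Cck for amphetamine (0.86, SE 0.26, adjusted p = 0.066) among 2.64% of all genes, and called it in the High-Active line (adjusted p = 0.094) among 0.886% of genes. The likelihood-ratio test with robust dispersions called both Cck (adjusted p = 0.002) and Vip (adjusted p = 0.048) for amphetamine among 3.1% of genes, and both in the High-Active line among 1.89% of genes. The same test called Calb2, Npy, Cck and Sst for the genotype effect among 15.3% of genes, and Cck and Sst after saline among 7.38%. In DESeq2 Calb2 was the only one of the 9 genes called for genotype (adjusted p = 0.045), among 19% of genes. In none of these tests was any of the 9 genes called for the interaction.

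Both peptide genes followed the cortical markers. Cck rose with the cortical score at r = 0.98 (rho = 0.97, n = 20, permutation test, adjusted p = 0.00011), with r = 0.99 in Control and 0.97 in High-Active mice. For Vip r was 0.88 (rho = 0.89, permutation test, adjusted p = 0.00011, n = 20), and for Npy it was 0.67 (rho = 0.75, permutation test, adjusted p = 0.0135, n = 20). The score averaged -0.76 ± 0.38 in High-Active saline mice, 0.17 ± 0.67 in High-Active amphetamine, 0.10 ± 0.53 in Control saline and 0.49 ± 0.17 in Control amphetamine mice (SD, n = 5 per group). Of its 12 genes, 4 were called lower in High-Active mice, against 6.9% of all genes, among them Lamp5 (-0.40, adjusted p = 0.015) and Slc17a7 (-0.85, adjusted p = 0.073). With counts added up by parents the call of Slc17a7 was lost (adjusted p = 0.453) and that of Lamp5 held (adjusted p = 0.082). Of the 12 genes, 0 were called for amphetamine, where the median difference was 0.79 and that of Lamp5 was 0.13 (SE 0.09). With the cortical score as a covariate the genotype effect was -0.27 for Lamp5 (adjusted p = 0.232) and -0.08 for Slc17a7 (adjusted p = 0.692). Both genes are themselves part of that score. Whether the RNA of Lamp5 came from cortical excitatory neurons was not tested. With the score in the model the amphetamine effect was 0.10 for Cck (SE 0.07) and -0.05 for Vip (SE 0.18), and the genotype effects changed sign, to 0.14 for Cck (SE 0.07) and 0.27 for Vip (SE 0.17). Among the genes most like Cck over the mice were Slc17a7 (r = 0.97), Neurod2 (r = 0.96), a transcription factor of cortical excitatory neurons, and Rtn4r (r = 0.98), the Nogo receptor.

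**Figure D3:**
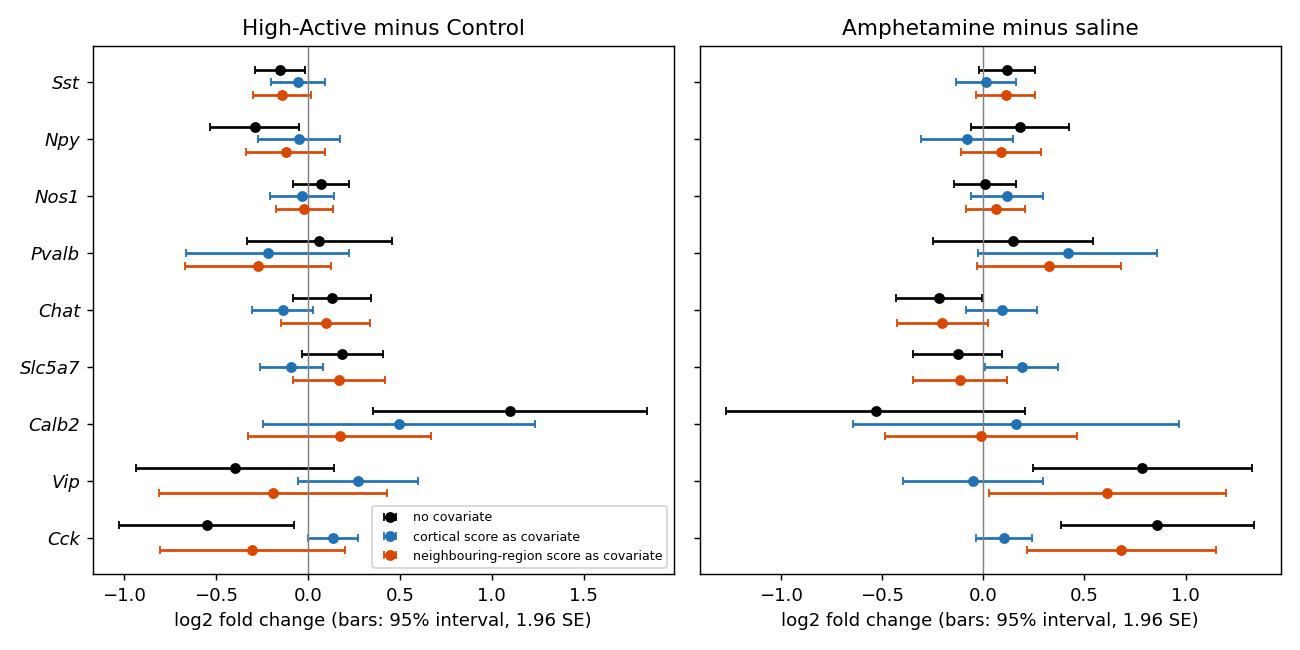
Log2 fold change of each marker gene (horizontal axis) for genotype, High-Active minus Control, on the left and amphetamine minus saline on the right, with 95% intervals as bars. Black gives the model without covariate, blue the cortical score and orange the neighbouring-region score as a covariate. Cck and Vip lay near 0 for amphetamine in the fit with the cortical score (0.10 and -0.05), and Calb2 lay at 0.17 for genotype in the fit with the neighbouring-region score.

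The 9 genes fell into opposed sets over the mice, with the group means removed. Cck and Vip had r = 0.87 with each other and r between 0.55 and 0.63 with Sst. Against them stood Chat and Slc5a7, with r between -0.86 and -0.73 with Cck and Vip. Calb2, Nos1 and Pvalb had positive correlations among themselves, from 0.41 to 0.69, and Npy was negative with all of these, the lowest being -0.77 with Calb2. All 36 values share the same 20 libraries and the same size factors and are a description. The genes nearest to Sst were Trappc2l (r = 0.87) and Mrps14 (r = 0.83), those nearest to Pvalb were Ccdc136 and Ntsr1 (both r = 0.89), and Slc5a7 was the gene most like Chat of all genes tested, followed by Nalcn (r = 0.82), a sodium leak channel.

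**Figure D4:**
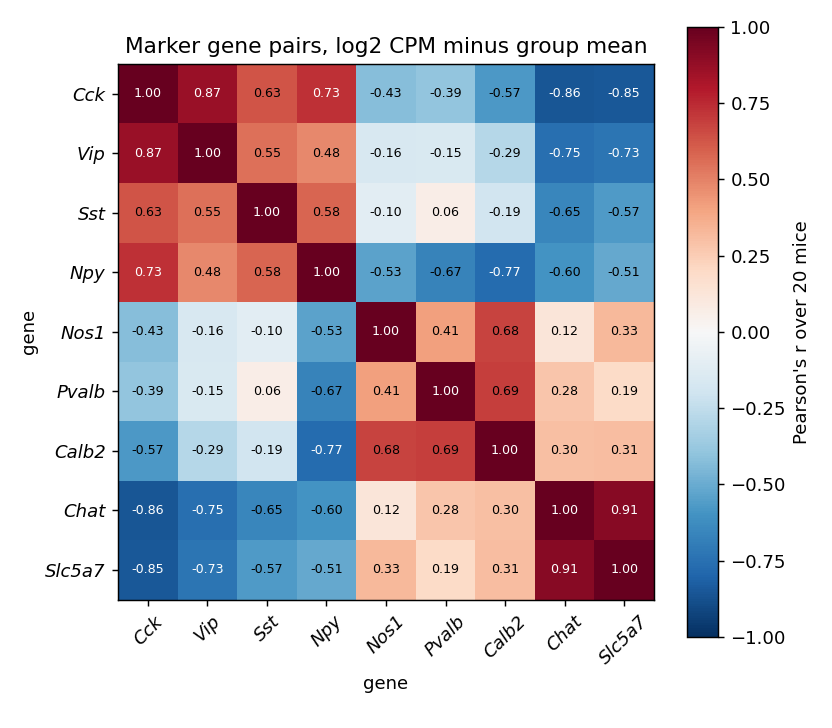
Pearson's r between each pair of the 9 marker genes over 20 mice, in log2 CPM with the group mean subtracted, from -1 (blue) to 1 (red). Cck, Vip, Sst and Npy form a red block, and Chat and Slc5a7 (r = 0.91) are blue against all 4 of these.

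Genes shared by many interneurons and the receptors of their transmitters were tested in the same way. Among the 13 shared interneuron genes, Sox6 was called higher in High-Active mice (0.17, SE 0.05, adjusted p = 0.058), where 7.63% of all genes were. Sox6 is a transcription factor of interneurons from the medial ganglionic eminence. Lhx6, which specifies these interneurons, differed by 0.10 (SE 0.08, adjusted p = 0.461), and Gad1, the GABA-synthesizing enzyme used by most striatal neurons and the gene with the most counts of the list, by 0.03 (SE 0.06). Of 15 tested receptors for somatostatin, neuropeptide Y, vasoactive intestinal peptide, cholecystokinin and nitric oxide, Gucy1a2, a subunit of the nitric oxide receptor guanylyl cyclase, was the 1 gene called, lower in High-Active mice (-0.59, SE 0.15, adjusted p = 0.023), where 14.5% of all genes were called. The cholecystokinin receptor gene Cckbr differed by -0.39 (SE 0.17, adjusted p = 0.142), and the neuropeptide Y receptor gene Npy2r by 0.44 (SE 0.17, adjusted p = 0.111). The call of Sox6 was lost with counts added up by parents (adjusted p = 0.170), with the cortical score (adjusted p = 0.477) and with the neighbouring-region score (adjusted p = 0.210). That of Gucy1a2 was lost with the cortical score (-0.56, adjusted p = 0.187) and with the neighbouring-region score (-0.45, adjusted p = 0.144). It held in voom with parents as a random block (-0.58, adjusted p = 0.025) and with counts added up by parents (-0.53, adjusted p = 0.098). The fits with the cortical and the neighbouring-region score called 2.53% and 5.16% of all genes, against 14.5% without a score. None of the genes of these lists was called for amphetamine or for the interaction.

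Markers of other cells gave 2 calls among 8 oligodendrocyte genes (Mobp 0.33, adjusted p = 0.021, and Mbp, the one with the most counts, 0.26, adjusted p = 0.089) and 2 among 5 astrocyte genes (Aldh1l1 0.32, adjusted p = 0.012, and Gja1 0.19, adjusted p = 0.035), all higher in High-Active mice. Across all genes 7.63% were called higher and 6.9% lower in High-Active mice. The astrocyte marker with the most counts, Slc1a3, differed by 0.09 (adjusted p = 0.151). Of 5 microglial genes, 2 were called lower in High-Active mice, Aif1 (-0.42, adjusted p = 0.016) and Csf1r, the one with the most counts (-0.14, adjusted p = 0.099). None of 5 choroid plexus genes was called; led by Ttr, they summed to between 20.5 and 901 CPM per mouse. With counts added up by parents the calls of Mbp, Gja1, Aif1 and Csf1r were lost (adjusted p = 0.316, 0.261, 0.112 and 0.156). With the cortical score those of Mobp, Mbp, Gja1 and Csf1r were lost (adjusted p = 0.381, 0.550, 0.379 and 0.272). Their values in that fit were 0.15, 0.16, 0.12 and -0.16, so that of Csf1r did not shrink. The same calls were lost with the neighbouring-region score (adjusted p = 0.116, 0.345, 0.192 and 0.272), and that of Aldh1l1 held in each of these fits. The part of all these cells in the levels of the 9 genes was not tested.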

How the data were processed

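For each of 20 striatal samples (paired reads, stranded libraries) the authors deposited raw counts of reads per Ensembl gene. They made FASTQ files with CASAVA 1.8.2, aligned them to GRCm38 with TopHat2 2.0.10 (Bowtie2 2.1.0 and SAMtools 0.1.19, per the submitters' notes) and counted on Ensembl annotation with htseq-count (HTSeq 0.6.1); the strand setting is not given in the sources used here. Lines for unassigned reads, 16.0% to 17.5% of each table's total, stayed out of all steps. Of 39179 IDs, 37607 matched a symbol.

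Genes above 1 CPM in at least 3 mice (14792) were normalized by TMM and tested with edgeR 4.0.16 (glmQLFit, glmQLFTest, R 4.3.3) in a model of 4 group means (5 mice each), and p-values were adjusted over all genes (Benjamini-Hochberg, threshold 0.1). CPM use TMM sizes, and log2 CPM a prior count of 2. Intervals are 1.96 SE on either side. Correlations used 100000 permutations of mice within groups, with adjustment over 22 relations, 9 of them added later. Exon lengths and positions are from GENCODE M21 on GRCm38. Alternatives used DESeq2 1.42.0, limma 3.58.1, a likelihood-ratio test, other filters and sizes, parents, tissue scores and mice left out. Mice of the same parents are related, and p-values treat them as independent.

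All members were named. Other listed genes were named if called, at most 4 a list, with the gene of most counts in each list. A few uncalled ones (Chodl, Lhx6, Lhx8, Zic4, Rgs9, Cckbr, Npy2r) were chosen after their values were seen. The members and lists were chosen with earlier results of these data known. The result of 1 gene of the shared interneuron list is not reported here.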

Additional observations from a re-analysis of the deposited data

How the results depend on the processing

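The call of Calb2 between the lines, the 1 call among the 9 genes, held with other size factors, other low-count filters and DESeq2. It was lost, leaving 0 calls, in voom with parents as a random block, after adding up the counts of mice that share parents, with the cortical score, with the cortical and oligodendrocyte scores, with the neighbouring-region score (added after seeing the data), and in saline-treated or amphetamine-treated mice alone. The likelihood-ratio test gave 4 calls between lines, 2 for amphetamine, 2 between lines after saline and 2 for amphetamine in High-Active mice, and DESeq2 gave 1 for amphetamine and 1 for amphetamine in High-Active mice, where the quasi-likelihood test gave 0. With a single mouse left out, the calls ranged from 0 to 3 between lines and from 0 to 1 for amphetamine (Cck, without Control saline replicate 1 or High-Active amphetamine replicate 2). The cause of these changes was not tested. The labels give no replicate numbers, but families with mice of both treatments allowed a fit with parents as a fixed block, which called 0 of the 9 genes for amphetamine (Cck 0.90, adjusted p = 0.976; Vip 0.82, adjusted p = 0.976). In voom the consensus correlation within parents was 0.0264.

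Directions that turned were all of uncalled values, except that of Tbr1, a cortical marker. Tbr1 is itself among the genes of the cortical score, so its value with that score as a covariate is not independent of the covariate. With the cortical score as a covariate and with the cortical and oligodendrocyte scores, in this order, genotype log2 fold changes were -0.0327 and -0.0148 for Nos1, -0.22 and -0.23 for Pvalb, -0.14 and -0.13 for Chat, -0.0895 and -0.0676 for Slc5a7, 0.27 and 0.24 for Vip, 0.14 and 0.12 for Cck, and 0.0230 and 0.0134 for Tbr1. Amphetamine values were -0.0784 and -0.0938 for Npy, 0.0914 and 0.12 for Chat, 0.19 and 0.24 for Slc5a7, 0.16 and 0.11 for Calb2, and -0.0487 and -0.0949 for Vip, and with both scores -0.000865 for Sst. The interaction was -0.0463 and -0.0952 for Vip and -0.0497 and -0.0707 for Cck, the line difference of Cck was 0.161 and 0.156 after saline and 0.111 and 0.0857 after amphetamine, and the response of Vip in High-Active mice was -0.0718 and -0.14. With the neighbouring-region score the genotype effect was -0.0195 for Nos1 and -0.27 for Pvalb, and that of Calb2 after saline was -0.0359. For Pvalb the genotype effect was -0.0329 in the likelihood-ratio test, -0.0337 in voom and -0.51 in saline-treated mice alone, and the amphetamine effect was -0.42 in Control mice alone. The amphetamine effect of Nos1 was -0.0338 in High-Active mice alone. With a single mouse left out, the amphetamine effect ranged from -0.0228 to 0.0481 for Nos1 and from -0.0158 to 0.237 for Pvalb, the genotype effect of Pvalb from -0.103 to 0.142, the interaction of Calb2 from -0.00623 to 0.58, and the line difference of Cck after amphetamine from -0.44 to 0.0127. The lowest count of the 9 genes in any mouse was 104 reads.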
